A study of Arabidopsis thaliana with 19 samples.

Results

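Maternal-excess triploid seedlings of Arabidopsis thaliana, titled 3x(m), were compared with diploid seedlings, titled 2x. The seedlings were taken by their titles, which gave 5 triploids and 4 diploids, 9 of the 19 seedlings of an autopolyploid series. Each 3x(m) seedling carries 3 copies of the nuclear genome and each 2x seedling 2, the mark (m) standing in the labels for an excess from the mother. All were single seedlings 2 weeks old, grown on MS medium in a growth chamber, so each value stands for 1 whole plant and holds shoot and root together. The other seedlings of the series, 5 paternal-excess triploids titled 3x(p) and 5 tetraploids titled 4x, entered the estimate of the spread and a small number of side comparisons. The accession and the crosses behind the triploids are not given in the sources used here.

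An autotriploid holds whole extra copies of its own species' genome, commonly from a cross between a tetraploid and a diploid parent. In a maternal-excess cross the tetraploid is the mother, so the egg brings the extra copies, while plastids and mitochondria come from the mother in either cross direction. Reciprocal triploids share the same nuclear dosage and differ in which parent supplied the excess, a difference that acts strongly in the endosperm through imprinted genes.

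RNA was measured on Affymetrix ATH1 arrays, which read each transcript with a set of short probes called a probe set. The deposited values are log2 intensities that had been put on one scale across arrays by RMA, a normalization that brings all arrays to a common distribution. A shift of all transcripts together between ploidies would therefore not appear, and each difference below is a level relative to the other transcripts of the same seedling. In whole seedlings, fewer cells of a type and less RNA per cell cannot be told apart. Of 22746 probe sets tested, 13513 had a single gene in the annotation used here, and a probe set without one is named by its ID. The shoot marker RCA, which encodes Rubisco activase, averaged 13.82 in both groups. The 4 root markers with a probe set (PYK10, XTH26, EXPA7 and EXPA18) summed to between 29.4 and 31.8 in the diploids and between 27.1 and 35.3 in the triploids. The wider spread among the triploids came from the root hair genes XTH26, EXPA7 and EXPA18. PYK10 alone read 12.27 to 12.51 in the diploids and 12.17 to 12.59 in the triploids.

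The seedling 3x(m) 4 stood apart from the other 8 before any comparison of the groups. It lay at least 1 log2 unit above all of the other 8 seedlings at 351 probe sets and at least 1 below all of them at 290, while no other seedling did so at more than 14 above or 33 below. Its root-mean-square distance from the mean of the rest of its group was 0.554, against 0.215 to 0.317 for the other 8 seedlings. It was singled out from earlier readings of these same arrays because its chromosome 4 genes are raised, so its values are a description. Most group results that moved with it are given with and without it.

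Few transcripts differed between maternal-excess triploids and diploids beyond the spread between seedlings. In limma, fitted on all 19 arrays and adjusted by Benjamini-Hochberg over all probe sets, 8 probe sets rose in the triploids, 0.0352% of those tested, and 0 fell (0.0%). At an unadjusted p under 0.05 there were 985 probe sets (4.33%), 482 higher (2.12%) and 503 lower (2.21%), where 1137.3 would be reached with no difference at all. The 18 probe sets with an adjusted p under 0.1 were all higher in the triploids. On simulated data of the same size the fit recovered 94% of 2-fold changes, 70% of 1.5-fold changes and 6% of the smallest changes simulated. Small changes were thus not detectable with this number of seedlings. The simulation planted 50 changed probe sets at each fold, drew independent noise and held no seedling set apart. Its shares need not hold for the real arrays, where AT3G07350, higher by 1.33, had a limma adjusted p of 0.285. Without 3x(m) 4 there were again 8 calls (0.0352%), of which 7 were shared, and 844 probe sets had an unadjusted p under 0.05 (3.71%). When only the 9 arrays of both groups entered the limma fit, there were 0 calls, the smallest adjusted p was 0.212, and 768 probe sets had an unadjusted p under 0.05. The 8 calls thus rest on a spread estimated from all 4 ploidy groups.

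**Figure D1:**
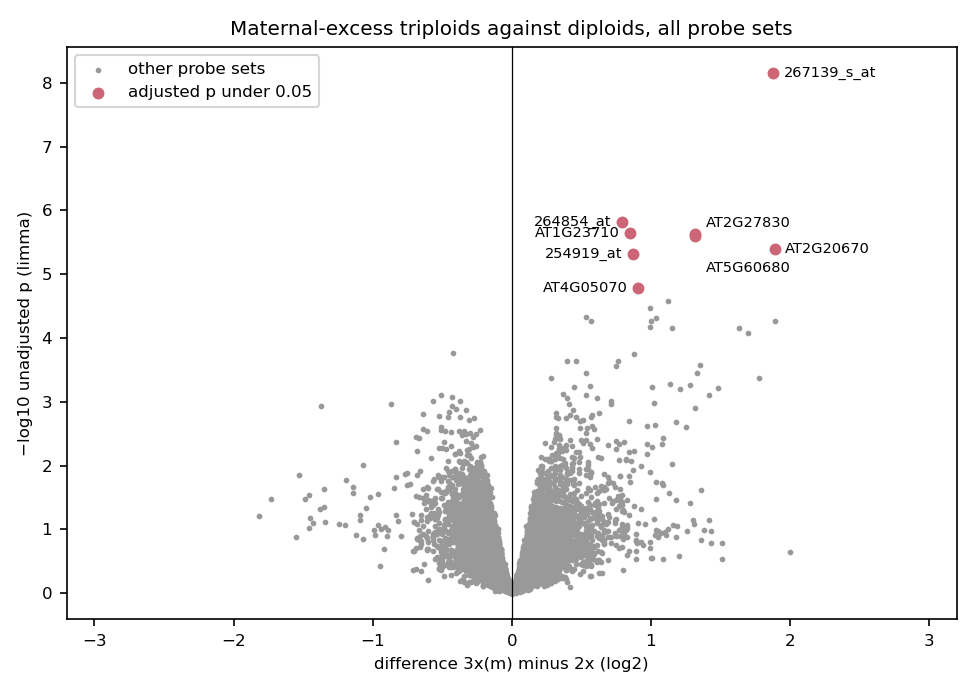
Each point is 1 of the 22746 probe sets, placed by its difference 3x(m) minus 2x (log2, x axis) and by the negative log10 of its unadjusted limma p (y axis). The 8 red points passed an adjusted p of 0.05 and all lie on the right, between 0.79 and 1.89, while no point on the left passed.

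The genes that rose included members of 2 small plant families of little-known function, the DUF506 family and the S40 family. AT2G20670, a DUF506 gene on chromosome 2, read 6.63, 6.84, 6.35 and 7.61 in the diploids and 8.71, 9.42, 8.86, 8.46 and 8.31 in the triploids. Every triploid stood above every diploid, and 2x 4 came nearest. The rise was 1.89 ± 0.293 (log2, SE, n = 5 and 4), or 3.72-fold, with an adjusted p of 0.0155 in limma. AT5G60680, a gene of the S40 family, first described in senescing barley leaves, read 8.52, 9.02, 9.26 and 9.51 in the diploids and 10.56, 10.61, 10.54, 9.87 and 10.39 in the triploids. The groups again did not overlap, and 3x(m) 4 was the lowest triploid. The rise was 1.32 ± 0.197 (2.49-fold, limma adjusted p = 0.0114) and became 1.45 without 3x(m) 4 (adjusted p = 0.00455).

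AT2G27830, on chromosome 2, read 5.21, 6.23, 6.04 and 6.16 in the diploids and 7.27, 7.60, 6.97, 7.24 and 7.06 in the triploids. A gap of 0.75 log2 units separated the lowest triploid from the highest diploid, and 2x 1 lay well below the other diploids. It rose by 1.32 ± 0.195 (2.49-fold, limma adjusted p = 0.0114). AT1G23710 read 4.59, 4.90, 5.26 and 4.81 in the diploids and 5.72, 5.95, 5.54, 5.93 and 5.58 in the triploids. The triploids were close to each other and 2x 3 was the nearest diploid. The rise was 0.85 ± 0.126 (1.81-fold, limma adjusted p = 0.0114). AT4G05070, annotated in the wound-responsive family and lying on chromosome 4, read 8.49, 9.01, 8.86 and 9.17 in the diploids and 9.97, 9.91, 9.68, 9.79 and 9.61 in the triploids. The groups did not overlap, and 3x(m) 4 was in the middle of its group. The rise of 0.91 ± 0.158 (1.88-fold) passed narrowly, with a limma adjusted p of 0.0465, and the same difference of 0.91 had an adjusted p of 0.0779 without 3x(m) 4.

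The other 3 probe sets that rose have no single gene in the annotation used here. Probe set 267139_s_at read 3.47, 3.25, 3.27 and 3.93 in the diploids and 5.66, 5.57, 4.93, 5.79 and 4.86 in the triploids. The diploids lay near the bottom of the scale, below the level of 4.07 under which the dimmest 30% of probe sets fell on average, and the triploids above it. The difference was 1.88 ± 0.188 (3.69-fold), with the smallest adjusted p of the comparison, 0.000159 in limma, and the suffix of its name marks probes that can match more than 1 transcript. Probe set 264854_at read 7.40, 7.64, 7.49 and 7.71 in the diploids and 8.26, 8.57, 8.47, 8.48 and 7.97 in the triploids. The groups did not overlap, with 3x(m) 5 the nearest to the diploids. It rose by 0.79 ± 0.114 (1.73-fold, limma adjusted p = 0.0114). Probe set 254919_at read 7.89, 8.41, 7.96 and 8.50 in the diploids and 9.01, 9.08, 8.81, 9.35 and 9.05 in the triploids. Here too every triploid was above every diploid, and 3x(m) 4 was the highest. It rose by 0.87 ± 0.137 (1.83-fold, limma adjusted p = 0.0157).

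**Figure D2:**
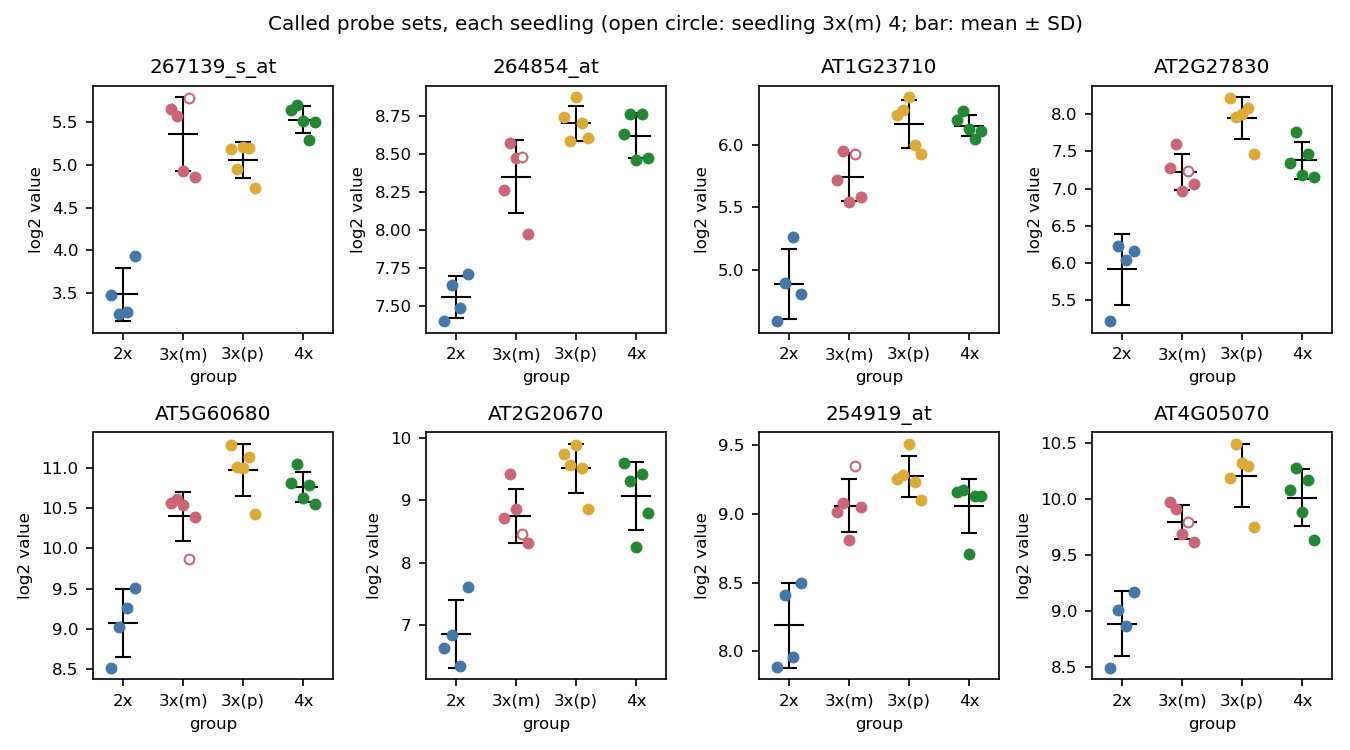
The log2 level (y axis) of each of the 8 probe sets that rose is shown for every seedling of the 4 ploidy groups (x axis), 1 point per seedling, with the mean ± SD of each group and 3x(m) 4 as an open circle. In each panel all 5 maternal-excess triploids lie above all 4 diploids.

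The 8 probe sets tended to order the seedlings in the same way within a group. The diploid 2x 4 was the highest diploid at 6 of the 8 and 2x 1 the lowest at 6 of the 8. Among the triploids 3x(m) 2 was the highest at 5 of the 8, while 3x(m) 5 was the lowest at 4 and 3x(m) 3 at 3. Leaving out 1 seedling at a time gave between 1 and 17 calls. Only 267139_s_at was called in all 9 of these fits, and AT4G05070 was called in 1 of the 9. With either 2x 1 or 3x(m) 2 left out there was 1 call, with 2x 3 left out there were 4, and with 2x 4 left out there were 17. With 2x 2 left out there were 13 calls, 3 of them lower in the triploids.

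The same 8 probe sets were also read in the other polyploids, which allows a test of whether the maternal-excess triploids differed from them. Those tests share the 3x(m) seedlings, and the differences from diploids share the 2x seedlings. AT2G20670 averaged 9.51 in the 3x(p) seedlings and 9.07 in the 4x seedlings, beside 8.75 in the 3x(m) seedlings. AT2G27830 averaged 7.95 in 3x(p), 7.38 in 4x and 7.23 in 3x(m), and the difference 3x(p) minus 3x(m) of 0.72 ± 0.184 had an adjusted p of 0.575 in limma. None of the 8 passed the test against 3x(p), where 1 probe set of all tested did, with a smallest adjusted p of 0.575. None passed against 4x, where 17 of all tested did, with a smallest adjusted p of 0.28. All 8 also passed against the diploids in the 3x(p) and in the 4x seedlings. The largest adjusted p in limma was 0.000328 for 3x(p) and 0.00391 for 4x, both at 254919_at. The 3x(p) mean was above the 3x(m) mean at 7 of the 8, and the 4x mean likewise at 7 of the 8. Higher means than in these diploids were thus not particular to the maternal-excess triploids. Because the same diploids enter each of these differences, their passing is not independent, and low values in the diploids would raise all of them. A difference between the polyploid groups was not detected at these 8, which does not show that their levels were equal.

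The 5 genes with the next smallest p on the higher side did not pass, although their groups did not overlap. AT3G10020, a gene of unknown function known to respond to low oxygen, was higher by 1.12 ± 0.201 (limma adjusted p = 0.0672). AT5G19120, an aspartyl protease-like gene of the dark-induced and sugar-repressed list, read 7.56, 8.31, 6.88 and 9.08 in the diploids and 9.61, 10.29, 9.49, 9.78 and 9.14 in the triploids, a difference of 1.70 ± 0.34 (adjusted p = 0.102). In the diploids this gene spanned more than 2 log2 units, with 2x 4 almost level with the lowest triploid. AT1G74940 was higher by 0.53 ± 0.0994 (adjusted p = 0.083), the GRAS-family gene AT3G46600 by 0.88 ± 0.188 (0.191), and AT4G28240, annotated in the wound-responsive family like AT4G05070, by 0.76 ± 0.165 (0.22). Probe set 251443_at, whose groups overlapped, was higher by 0.99 ± 0.194 (adjusted p = 0.0892), and without 3x(m) 4 it rose by 1.14 (adjusted p = 0.0259).

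No gene fell. The smallest adjusted p among lower genes was 0.191, for AT2G20440, which read 6.52, 6.36, 6.53 and 6.49 in the diploids and 6.07, 5.99, 6.01, 6.10 and 6.12 in the triploids. The groups did not overlap and both were tight, but the difference was only −0.42 ± 0.0889. AT2G23910 was lower by more, −0.87 (adjusted p = 0.491), as was AT5G02180, −0.64 (0.572). The other lower genes with the smallest p had differences such as −0.43 for AT3G17130 (0.452), −0.37 for AT1G01920 (0.476) and −0.43 for AT3G11110 (0.501).

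Counting probe sets by whether the groups overlapped gave similar numbers in both directions. Every triploid was above every diploid at 165 probe sets (0.725%) and below every diploid at 146 (0.642%). Without 3x(m) 4 these became 269 (1.18%) and 278 (1.22%). Differences of at least 1 log2 unit were more often higher, at 63 probe sets (0.277%), than lower, at 26 (0.114%). Both of these counts include 3x(m) 4 and were not taken without it, so that seedling's part in the excess is not known. Over all probe sets the median difference was −0.00445, 48.4% of differences were above 0 (46.9% without 3x(m) 4), and the median standard error of a difference was 0.117. The median standard deviation between seedlings was 0.152 in the diploids and 0.179 in the triploids, or 0.148 without 3x(m) 4.

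The families of the genes that rose were then read as lists, which hold only members with a single-gene probe set in the annotation used here. All 6 DUF506 probe sets were higher in the triploids, as were 48.4% of all probe sets, with a median difference of 0.38. Without 3x(m) 4 the median was 0.42, and the difference of AT2G39650 went from 0.21 to 0.0. Of the 6, AT2G20670 passed the test, beside 0.0352% of all probe sets, and none fell. AT3G07350, another DUF506 gene, read 6.96, 8.08, 8.14 and 8.77 in the diploids and 9.34, 9.81, 9.15, 9.10 and 9.17 in the triploids. The groups did not overlap, yet the diploids were widely spread, and the difference of 1.33 ± 0.303 had a limma adjusted p of 0.285. AT2G38820 differed by 0.55 ± 0.204 (0.999) and AT3G22970 by 0.07 ± 0.112 (0.999), so the size varied widely within the family. Of the 11 S40 probe sets, 8 were higher, with a median of 0.09, and AT5G60680 alone passed. Without 3x(m) 4, 6 of the 11 were higher, with a median of 0.10. Both lists were chosen with earlier results of these data known, so these counts are a description. AT2G28400, the S40 gene with the next largest difference, 0.34 ± 0.53, split the diploids into 7.03 and 7.25 against 5.18 and 5.24, and the triploids ranged from 5.04 to 7.42.

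Genes that leaves switch on in darkness or when sugar is short were represented by 5 probe sets, of which 0 passed in either direction. Of all probe sets 0.0352% rose and 0.0% fell, so 0 calls in a list this small say little about it. The same holds for the lists below. The median difference was −0.02 with 2 of 5 higher, and 0.15 with 4 of 5 higher without 3x(m) 4. AT3G15450, known as a dark- and senescence-induced gene, read 5.57, 6.83, 5.78 and 7.85 in the diploids and 7.85, 9.16, 8.41, 8.50 and 7.51 in the triploids. The groups overlapped at 2x 4, and the difference of 1.78 ± 0.415 had a limma adjusted p of 0.327. SAG29 (SWEET15), a sugar transporter gene of senescing leaves, was lower by −0.46 ± 0.455, and by 0.01 higher without 3x(m) 4, where it read 8.84 against 10.59 to 11.49 in the other triploids.

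**Figure D3:**
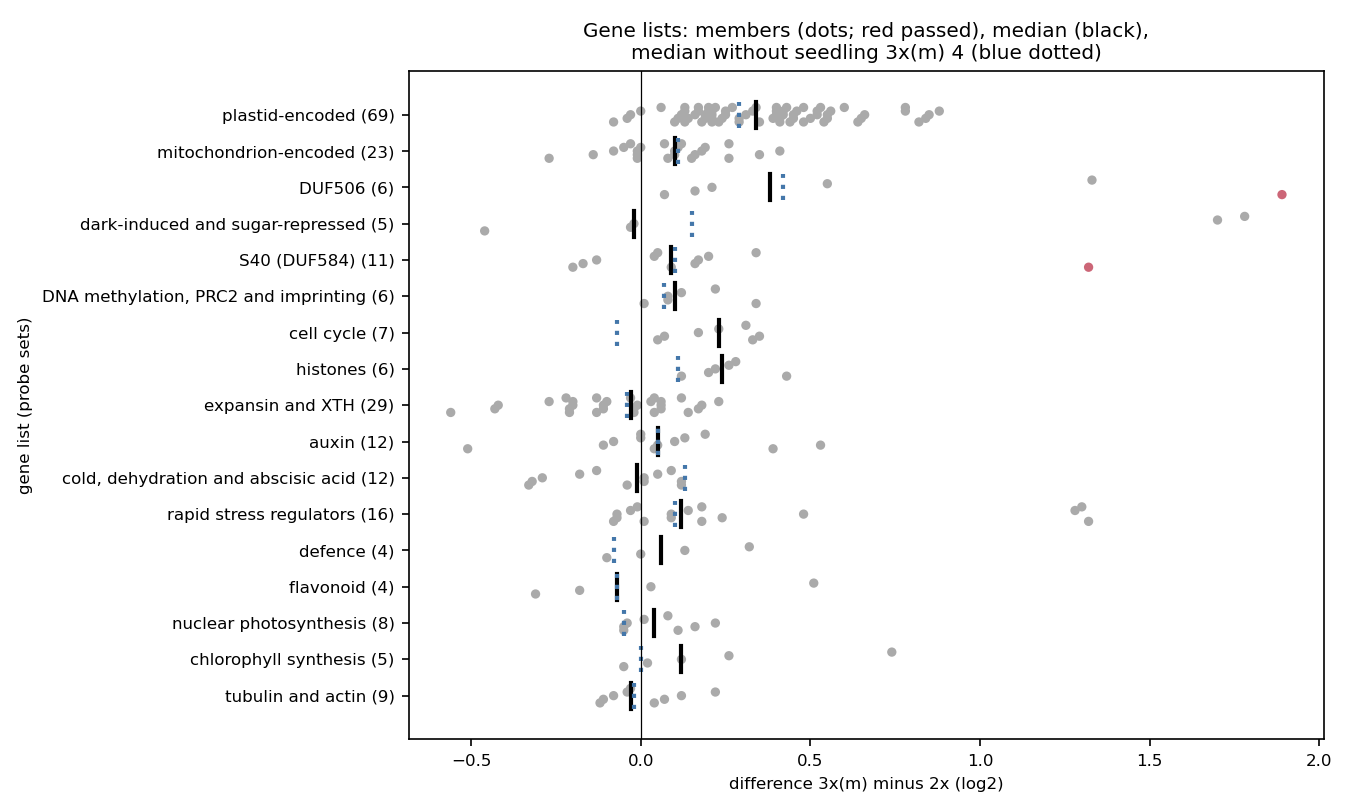
Each point is 1 probe set's difference 3x(m) minus 2x (log2), grouped by gene list, and bars mark the list's median with all seedlings (black) and without 3x(m) 4 (blue, dotted). The medians run from −0.07 for the flavonoid list to 0.38 for DUF506, with the plastid-encoded genes at 0.34, histones at 0.24 and cell cycle at 0.23, and the 2 points in red, which passed the test, lie at 1.89 in the DUF506 and 1.32 in the S40 list.

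Genes encoded in the plastid were mostly higher in the triploids, without any passing the test, beside 0.0352% of all probe sets. The triploid mean was the higher one at 66 of 69 plastid probe sets (95.7%, against 48.4% of all probe sets). The median over the 69 was 0.34, or 0.29 without 3x(m) 4. Of the 69, 18 had an unadjusted p under 0.05 on the higher side and 0 on the lower, where 2.12% and 2.21% of all probe sets did, and without 3x(m) 4 these were 7 and 0. At none of the 69 did the groups stay apart, while 0.725% of all probe sets had every triploid higher. These transcripts share 1 genome and rise and fall together between seedlings, so they are not independent. The shift of the plastid genes as a whole, taken in each seedling as the median departure from the 9-seedling median, was −0.645, −0.114, 0.256 and −0.326 in the diploids and 0.000569, 0.102, 0.219, 0.259 and −0.156 in the triploids. The diploid 2x 1 was far below the rest and 2x 3 was as high as the highest triploids. The difference of 0.292 did not exceed this spread (exact two-sided permutation test, n = 5 and 4, p = 0.19, adjusted over 2 compartments 0.381). Single diploids moved it widely, to 0.146 without 2x 1 and to 0.447 without 2x 3, and the median over the 69 probe sets to 0.15 and 0.49.

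By role, the genes of the plastid's own RNA polymerase had a median difference of 0.54, with 4 of 4 higher and rpoC1 at 0.78. ATP synthase genes lay at 0.45 (6 of 6) and ribosomal protein genes at 0.44 (15 of 15, rpl14 at 0.88). The photosystem I genes had a median of 0.20 (5 of 5), the photosystem II genes 0.21 (13 of 15, psbN at 0.85), the cytochrome b6f genes 0.37 (5 of 6) and the NDH genes, which serve cyclic electron flow, 0.17. Without 3x(m) 4 the medians were 0.35 for the RNA polymerase, 0.33 for cytochrome b6f and 0.31 for both ATP synthase and ribosomal proteins, so the roles were closer together. rbcL, which encodes the large subunit of Rubisco, read 9.83, 9.81, 10.48 and 9.80 in the diploids and 10.70, 10.49, 10.60, 10.88 and 10 in the triploids. The triploids were higher except 3x(m) 5, which lay among the diploids, and the difference was 0.55 ± 0.188 (limma adjusted p = 0.999). Of the 23 mitochondrial probe sets 14 were higher, with a median of 0.10, and without 3x(m) 4 17 were, with a median of 0.11. The 23 stand for 16 genes, and most had a diploid mean below 4.07, the level of the dimmest 30% of probe sets. These counts and medians, and the shift over the same probe sets, thus say little about mitochondrial transcript levels. The mitochondrial shift of 0.0211 had an exact two-sided permutation p of 0.857 (adjusted 0.857, n = 5 and 4).

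Genes for photosynthesis encoded in the nucleus lay near 0. Of 8 probe sets 5 were higher, with a median of 0.04 and a range from −0.05 to 0.22. Of these 0 passed, beside 0.0352% of all probe sets. Without 3x(m) 4 the median was −0.05 with 3 of 8 higher. The 5 chlorophyll synthesis probe sets had a median of 0.12, or 0.0 without that seedling. The largest difference there, 0.74 ± 0.398 for PORB, an enzyme of light-dependent chlorophyll synthesis, became 0.41 without 3x(m) 4, which read 10.66 against 8.70 to 9.63 in the other triploids.

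Genes of cell division showed how strongly 3x(m) 4 set a group mean. The triploid mean was above the diploid mean at 7 of 7 cell cycle probe sets (median 0.23), and without 3x(m) 4 at 2 of 7 (median −0.07). AUR1, an Aurora kinase of the mitotic spindle, read 6.70, 6.83, 6.49 and 6.86 in the diploids and 6.46, 6.27, 6.95, 8.66 and 6.90 in the triploids. Only 3x(m) 4 stood far from the rest of these seedlings, and the difference went from 0.33 to −0.08 without it. In the other polyploids AUR1 ran from 6.01 to 7.9 in 3x(p) and from 6.61 to 7.79 in 4x. AUR2 read 8.38 in 3x(m) 4 and 5.76 to 6.33 in the other triploids, and BUBR1, a spindle checkpoint gene, 6.63 against 4.66 to 5.09. SIM (SIAMESE), a cyclin-dependent kinase inhibitor that promotes endoreduplication, went the other way, at 5.25 in 3x(m) 4 and 6.82 to 7.06 in the other triploids. Its difference was 0.07 with that seedling and 0.41 without it, beside a diploid range of 6.34 to 6.65.

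The 6 histone probe sets were higher with and without 3x(m) 4, with a median of 0.24, or 0.11 without it. HTR12, the centromeric histone H3, read 5.75 in that seedling and 4.56 to 4.76 in the other triploids. The linker histone gene HIS1-3 went the other way, at 3.54 in that seedling and 5.55 to 6.04 in the others, and its difference was 0.20 with it and 0.65 without it. None of the cell cycle or histone probe sets passed the test in either direction, beside 0.0352% of all probe sets.

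Genes that protect against cold and drying gave the reverse picture. Of 12 probe sets 6 were higher with a median of −0.01, and without 3x(m) 4 all 12 were higher with a median of 0.13. There were 0 calls in either case, beside 0.0352% of all probe sets in both. COR47, a dehydrin, read 11.90, 10.85, 12.11 and 11.25 in the diploids and 11.56, 11.34, 12.04, 9.35 and 11.71 in the triploids. LEA4-5, a late embryogenesis abundant protein, split the diploids into 8.62 and 8.25 against 5.15 and 5.18, and the triploids read 7.07, 5.41, 8.35, 3.95 and 7.65. In both genes 3x(m) 4 was the lowest of the 9, and the diploids alone differed by more than the groups did.

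The list of rapid stress regulators held 16 transcription factors and calcium sensors, taken mostly by family symbol such as WRKY and CML. How fast each member responds to a stimulus was not a criterion. Of the 16, 11 were higher, with a median of 0.12, and 0 passed in either direction, beside 0.0352% of all probe sets. STZ, a zinc-finger repressor of drought and salt responses, read 5.13, 4.74, 4.39 and 4.35 in the diploids and 6.09, 5.99, 5.17, 6.82 and 5.77 in the triploids. The groups stayed apart by a hair at 3x(m) 3, with a difference of 1.32 ± 0.345 (limma adjusted p = 0.521) that was 1.10 without 3x(m) 4. WRKY53 read 3.78, 3.70, 4.75 and 4.02 in the diploids and 5.75, 5.24, 4.15, 7.26 and 4.33 in the triploids. It overlapped, and its difference of 1.28 ± 0.576 became 0.80 without 3x(m) 4. CML41, a calmodulin-like protein, differed by 1.30 ± 0.68, or 0.76 without that seedling, which read 8.23. High values of these genes were not confined to 3x(m) 4. In the 3x(p) seedlings CML41 ran from 4.39 to 7.9, WRKY53 from 4.88 to 7.86 and STZ from 5.86 to 7.58, with 3x(p) 5 the highest at each. No 4x seedling read above 5.99 at any of them. The list's summed level ran from 76.9 to 78.7 in the diploids and from 78.9 to 90.8 in the triploids. The highest sum was that of 3x(m) 4, and the lowest triploid lay barely above the highest diploid. Without 3x(m) 4, 9 of the 16 were higher, with a median of 0.10.

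**Figure D4:**
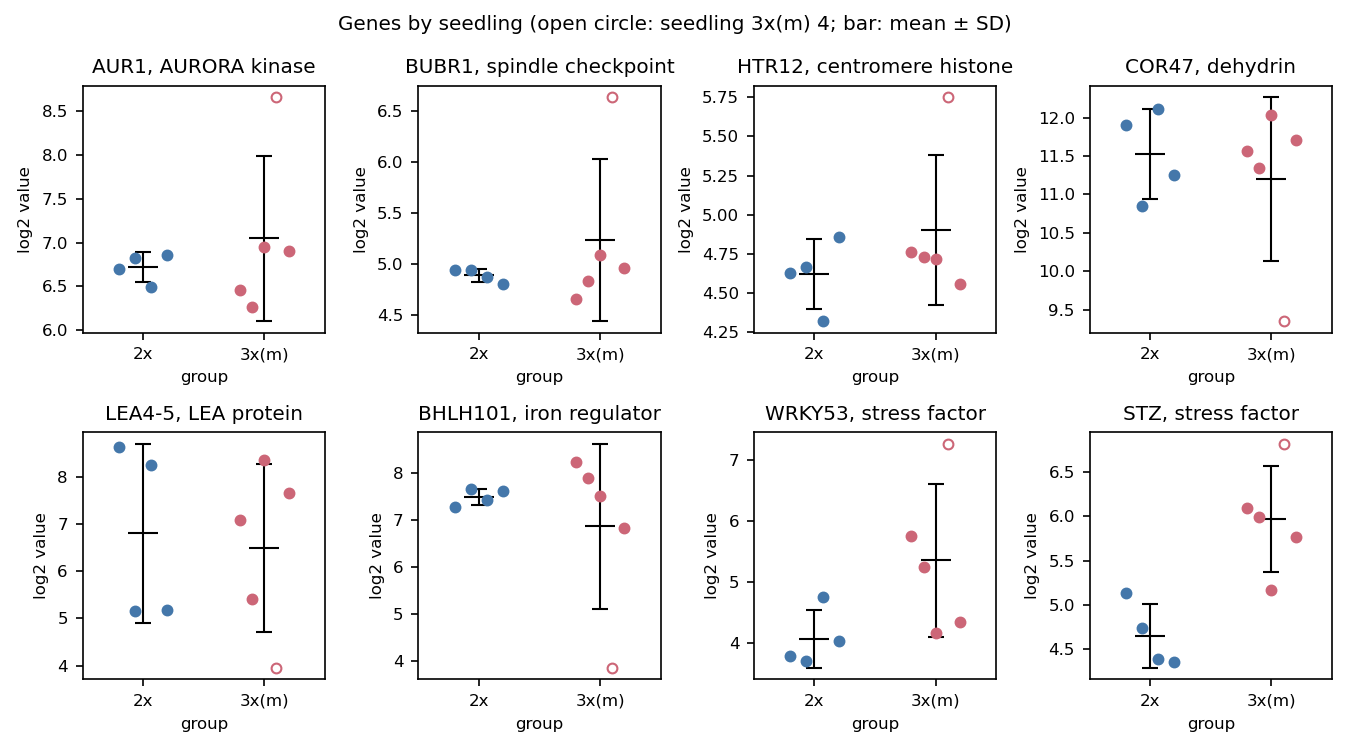
The log2 level (y axis) of 8 genes is shown for every diploid and maternal-excess triploid (x axis), with the mean ± SD of each group and 3x(m) 4 as an open circle. That seedling is the highest triploid for AUR1, BUBR1, HTR12, WRKY53 and STZ and the lowest for COR47, LEA4-5 and BHLH101, and STZ is the only one of the 8 in which the groups do not overlap.

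In the remaining lists 0 members passed, where 0.0352% of all probe sets rose and 0.0% fell. At that share lists of this size would seldom hold a call. The 29 expansin and XTH probe sets, which encode proteins that loosen and remodel the cell wall, had 11 positive differences and a median of −0.03, from −0.56 for EXLA1 to 0.23 for XTH16. The 12 auxin genes had a median of 0.05, with WES1, which encodes an enzyme that conjugates auxin to amino acids, at 0.53 ± 0.195 and its relative GH3.17 at −0.51 ± 0.221. The DNA methylation and imprinting list held 3 probe sets of DME and those of AGL62, AT4G11940 and MPC, and no DNA methyltransferase. Differences were positive at 6 of 6, as at 48.4% of all probe sets, with a median of 0.10. Without 3x(m) 4 they were positive at 5 of 6 with a median of 0.07. AGL62 (2.98), AT4G11940 (3.46) and DME probe set 250834_at (3.82) had diploid means below 4.07, the level of the dimmest 30% of probe sets. The largest there was MPC, known as an imprinted gene of the endosperm, at 0.34 ± 0.101 (limma adjusted p = 0.759), and the 3 probe sets of the DNA demethylase DME lay between 0.08 and 0.22. The 9 tubulin and actin probe sets had a median of −0.03, the 4 flavonoid probe sets −0.07 and the 4 defence probe sets 0.06, or −0.08 without 3x(m) 4. Of the 2 heat shock probe sets, Hsp70-2 differed by 0.18, or −0.22 without 3x(m) 4. The clock gene GI differed by 0.02. The only gene of the iron list with a single-gene probe set in the annotation used here was the regulator BHLH101. It differed by −0.63, or 0.12 without 3x(m) 4.

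The seedling 3x(m) 4 was picked out for its raised chromosome 4 genes, and the values below describe that choice. It was the highest of the 9 at 42.5% of the single-gene probe sets of chromosome 4 and at 18.8% of those on the other nuclear chromosomes, while the other 8 seedlings were highest at 2.96% to 13.2% and 5.5% to 16.8%. Measured as the median departure of a chromosome's 1962 probe sets from the mean of the 9 arrays, relative to all nuclear chromosomes, its chromosome 4 lay at 0.123, and that of the other 8 seedlings between −0.0233 and −0.00996. The 3x(m) group as a whole had a chromosome 4 shift of 0.0275 against diploids (exact two-sided permutation test, n = 5 and 4, p = 0.698, adjusted over 5 chromosomes 0.905), and −0.000708 without 3x(m) 4 (p = 0.771, adjusted 0.964). The smallest p that 5 against 4 seedlings allow is 0.0159, which adjusts to 0.0794 when 1 of 5 chromosomes reaches it. The share of chromosome 4 probe sets with a positive difference fell from 61.5% to 48.0% when 3x(m) 4 was left out, beside 45.6% to 47.6% on the other nuclear chromosomes with all seedlings. The other 4 chromosomes had group shifts between −0.00669 and −0.000859, or between −0.00288 and 0.00404 without 3x(m) 4.

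**Figure D5:**
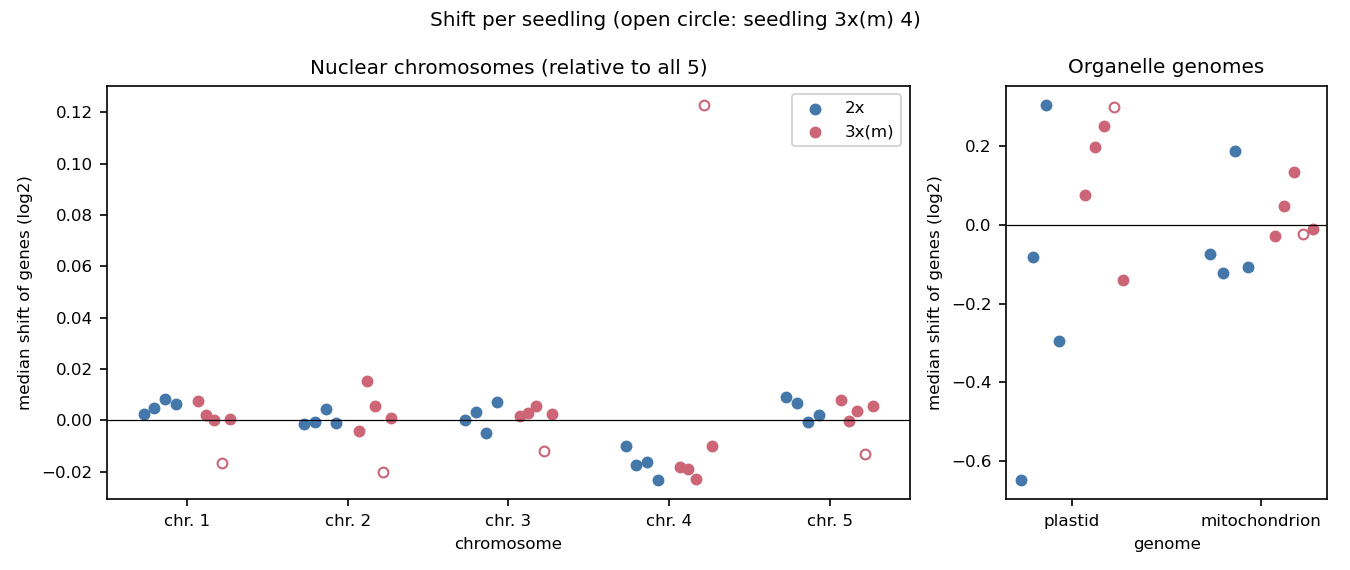
Points give each seedling's median departure from the 9-array mean (log2, y axis) for the genes of each nuclear chromosome relative to all 5 (left panel) and of the organelle genomes (right panel), with 3x(m) 4 as an open circle. In the left panel chromosome 4 of that seedling, at 0.123, lies far above all other points, and in the right panel diploids and triploids overlap.

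The genes that set 3x(m) 4 apart most, chosen after its values were seen, came from several processes and chromosomes. BGLU28, a beta-glucosidase known from sulfur starvation, read 8.78 in 3x(m) 4 and 3.60 to 6.0 in the other 8 seedlings. AT5G52740 read 7.10 there and 3.06 to 4.29 elsewhere, and 3xHMG-box2, a chromatin protein that binds mitotic chromosomes, 9.31 against 6.36 to 7.18. On the low side AT3G02480, a late embryogenesis abundant family gene, read 3.50 against 8.86 to 10.76. AT1G52070, a jacalin-lectin gene, read 3.53 against 8.73 to 10.57, and BHLH101 3.86 against 6.82 to 8.22. The root hair genes XTH26, EXPA7 and EXPA18 were also at their lowest among the triploids in this seedling, at 3.98, 5.04 and 5.45. The remaining root marker, PYK10, was at its highest among the triploids there, at 12.59 against 12.17 to 12.58. The cause of these departures was not tested.

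Of the 17 probe sets that passed in 4x minus 3x(m), only that of AT4G33720 is described here, chosen after its values were seen. AT4G33720, a pathogenesis-related family gene, read 7.15, 8.05, 6.48 and 5.84 in the diploids and 4.83, 4.99, 6.08, 5.36 and 5.45 in the triploids. The groups overlapped at 2x 4 and 3x(m) 3, and the difference of −1.53 ± 0.564 did not pass (limma adjusted p = 0.999). The tetraploids were higher than the maternal-excess triploids by 3.82 (adjusted p = 0.00449).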

How the data were processed

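Per the submitters' processing notes, the authors normalized the ATH1 arrays with RMA. The deposited values are log2 intensities, 1 column per seedling, and all columns were matched to seedlings by title. Of 22810 probe sets, 64 controls were left out. Genes came from the platform annotation (13513 probe sets with 1 gene, 503 with several, 8730 not listed), and 13436 matched the TAIR10.1 gene table used for chromosomes. limma 3.58.1 in R 4.3.3 (lmFit, eBayes) fitted 1 mean per ploidy group over 19 arrays, with Benjamini-Hochberg adjustment. Chromosome and organelle shifts were tested with exact permutations in scipy 1.17.1. The number of arrays limits the precision, and the fit was tested on simulated data. There it made 7 false calls beside the planted changes it recovered, among them 94% of 50 at 2-fold and 96% of 50 at 3-fold. Per the labels each replicate is 1 seedling. Named genes are all calls, the smallest p and widest gaps in each direction, up to 4 per gene list and up to 5 on chromosome 4. AT4G33720, 245668_at, the genes that set 3x(m) 4 apart and further list members were added after their values were seen. The members and the gene lists were chosen with earlier results of these data known. Lists were matched by locus or symbol, and matches to a different gene under the same symbol were removed by identity. Genes without a single-gene probe set in the annotation dropped out, so a list can hold only part of its family or pathway. The cytosolic ribosomal protein list and the seed, flower and senescing-leaf markers had 0 single-gene probe sets. With 9 arrays, departures from the probe set median left most chromosome shifts at exactly 0, so the departures from the mean were added after seeing the data and are the chromosome values given. No sequences are shown.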

Additional observations from a re-analysis of the deposited data

Results flagged for a closer look

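In 220 groups of 4 or 5 seedlings tested for a single distant value by Dixon's criterion, 19 had one, where chance alone gives about 1 in 20 groups, or 11. Of the 19, 11 belonged to the seedling 3x(m) 4. It was the highest triploid for BUBR1 (6.63), AUR1 (8.66), AUR3 (6.37), HTR12 (5.75), HTB1 (9.34), Hsp70-2 (8.60) and LHCB4.3 (11.1), and the lowest for IAA29 (4.28) and COR47 (9.35). Its chromosome 4 shift, for which the seedling had been picked out, was 0.123, where the other triploids lay between −0.0228 and −0.00996, and its chromosome 3 shift, taken like the former relative to all nuclear chromosomes, was −0.0119.

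The diploids held the other 8. Seedling 2x 1 was lowest for AT3G45630 (5.76, the others 5.85 to 5.87) and for 245668_at (4.40, the others 4.65 to 4.68), and highest for AT1G07220 (6.0, the others 5.69 to 5.71). Seedling 2x 3 was highest for rbcL (10.48, the others 9.80 to 9.83), for the mitochondrial shift (0.186, here as a departure from the mean of the 9 arrays) and for the chromosome 2 shift (0.00436), and lowest for AUR3 (4.48). Seedling 2x 2 was lowest for AT2G38820, a DUF506 gene (7.29, the others 7.53 to 7.57).

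A pair of items at which a contrast between polyploid groups passed in limma was added to the named ones, so their values restate that choice. AT4G33720 was picked from the 17 probe sets that passed in 4x minus 3x(m), and 245668_at was the only 1 that passed in 3x(p) minus 3x(m). AT4G33720 was higher in 4x than in 3x(m) seedlings by 3.82 (adjusted p = 0.00449). Probe set 245668_at was higher in 3x(p) than in 3x(m) seedlings by 0.88 (adjusted p = 0.00731), and its difference 3x(m) minus 2x was 0.38 ± 0.12 (adjusted p = 0.859).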

How the results depend on the processing

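The 8 calls depended most on which arrays estimated the spread. Fitting only the 9 arrays gave 0 calls, and so did that fit without 3x(m) 4, an alternative added after seeing the data, with 873 probe sets at an unadjusted p under 0.05. Leaving out 1 seedling at a time gave 1 to 17 calls. Counts of non-overlapping probe sets, which grow by construction with fewer seedlings, ranged from 242 to 459 (higher) and from 239 to 378 (lower). Over the same fits the list medians ranged from −0.13 to −0.02 for expansins and XTH, from −0.01 to 0.07 for auxin and from 0.10 to 0.18 for rapid stress regulators. Wider ranges were those of the plastid-encoded list (0.15 to 0.49), cell cycle (−0.07 to 0.37), cold and dehydration (−0.19 to 0.13) and chlorophyll synthesis (0.0 to 0.22). An intensity-dependent robust prior gave 10 calls, removal of dim probe sets 8, further quantile normalization 7, array weights 7, 1 probe set per gene 8 and a fold of at least 1.5 also 8. Array weights ended the calls of 254919_at and AT4G05070 (both adjusted p = 0.0813), and quantile normalization that of AT4G05070 (0.0542). AT3G10020 passed with the robust prior (adjusted p = 0.0481) and with the block (0.0197).

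Seedlings with the same replicate number correlated at −0.001, 0.024, 0.199 and 0.189 in their departures from the group means, so the numbers were not treated as pairs. 2x 1 correlated best with 3x(m) 3 (0.41). The fit with the replicate block gave 10 calls, which included all 8.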
